A study of Mus musculus with 2 samples.

Results

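Mir486 is a microRNA gene shared by striated muscle and the red cell lineage, and it is described here beside its opposite-strand partner Mir3107, also called Mir486b, and the red cell microRNA genes Mir451a and Mir144. These 4 genes were picked by name among the 2202 microRNA genes of the count tables, through their identifiers in the GENCODE M21 annotation, and all 4 were found. The samples were gastrocnemius, the large calf muscle, from male B6CASTF1/J mice aged 36 days, the F1 of a cross between the laboratory strain C57BL/6J and CAST, a strain of wild origin. Small RNA was sequenced from 2 samples, replicates 1 and 2, which were treated as 2 animals. They form 1 group with no treatment and no second condition. The comparisons are therefore between genes within a library and between the libraries.

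MicroRNAs are short RNAs cut from hairpin precursors, and bases 2 to 8 of the mature strand, the seed, do most of the pairing with target messenger RNAs. Mir486 lies within Ank1, the gene of ankyrin 1, which anchors the red cell membrane skeleton and has a short form in the sarcoplasmic reticulum of muscle. In muscle miR-486 is known to repress Foxo1, and it is also abundant in maturing red cells. Mir144 and Mir451a are made from 1 primary transcript that GATA1 switches on in erythroid cells. The Mir451a hairpin is unusual in that Argonaute 2, not Dicer, cuts it, and mature miR-451a is required for normal red cell maturation.

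The mature sequences are shown because they decide which reads can be told apart. Of the 4 genes, Mir451a and Mir144 matched the RefSeq sequence table (GRCm38.p6), and Mir486 and Mir3107 are named only. The table gives these mature strands, 5′ to 3′, with the seed in capitals.
mmu-miR-451a: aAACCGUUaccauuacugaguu
mmu-miR-144-5p: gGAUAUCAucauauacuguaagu
mmu-miR-144-3p: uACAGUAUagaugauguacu
Each of these 3 mature strands occurred in 1 of the 1005 hairpins of the table, and none shared its seed with another listed microRNA. Over bases 2 to 7 alone, miR-144-3p matched miR-101a-3p, shown with those bases in capitals.
mmu-miR-101a-3p: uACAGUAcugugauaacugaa
Mir144 had 388 reads in replicate 1 and 268 in replicate 2, against 2825 and 1818 for Mir101a, a widely expressed gene.

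Positions refer to mm10 with GENCODE M21. Mir486 (ENSMUSG00000070084.3) spans 128 bases of the plus strand of chromosome 8, from 23142555 to 23142682. It falls in an intron of Ank1 on the same strand and overlaps no exon of the 15 Ank1 transcripts that span it. Mir3107 (ENSMUSG00000106471.1) lies on the minus strand from 23142573 to 23142662, so that all 90 of its bases are inside Mir486, and it is intronic in Gm15816, a noncoding RNA antisense to Ank1. Mir144 (ENSMUSG00000065401.1) is on chromosome 11, plus strand, between 78073005 and 78073070. Mir451a (ENSMUSG00000070065.1) follows it on the same strand after a gap of 99 bases, from 78073170 to 78073241, and no other annotated gene than Mir451b overlaps this cluster. Mir451b occupies the same bases as Mir451a on the minus strand.

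**Figure D1:**
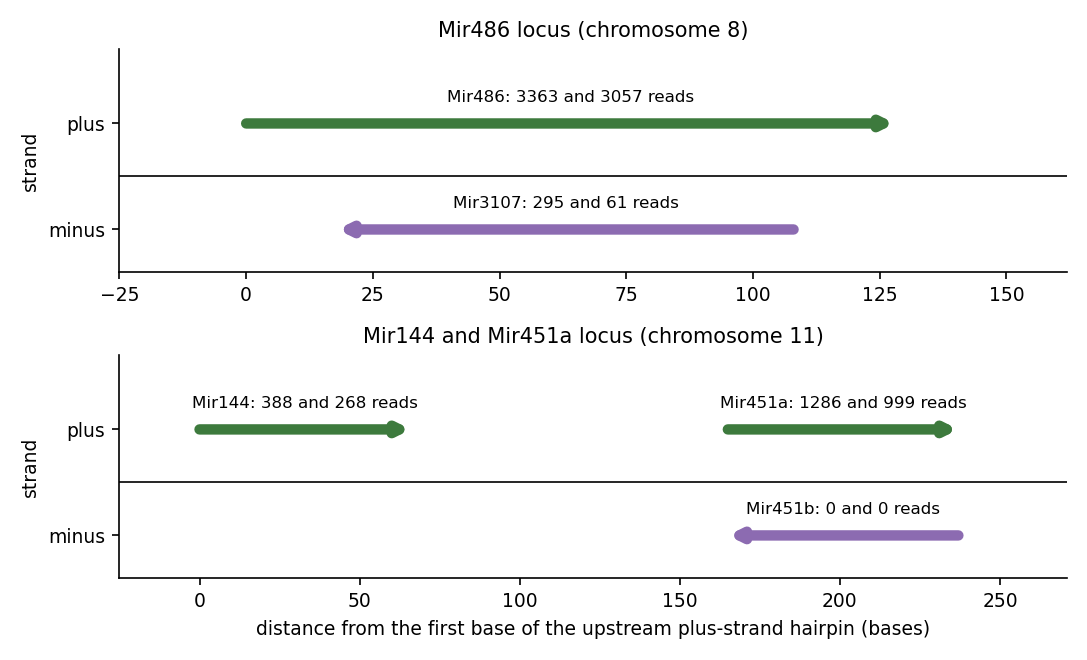
Map of the Mir486 locus (upper panel) and of the Mir144 and Mir451a locus (lower panel), with the distance in bases from the first base of the upstream plus-strand hairpin on the horizontal axis and the strand on the vertical axis. Arrows are annotated hairpins pointing in the direction of transcription, and the numbers are reads on that strand in replicate 1 and in replicate 2; Mir3107 had 295 and 61 reads, whereas Mir451b had 0 in both.

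Reads assigned to a microRNA gene on its own strand numbered 4134880 in replicate 1 and 3219740 in replicate 2, which were 20.96% and 19.2% of all reads. Reads aligned to several loci made up 70.4% and 73.3% of all reads, and the layout of the tables implies that they are in no gene's count. Levels are given as CPM, a gene's reads per 1000000 counted reads of its library, with no division by length because a microRNA read is 1 whole mature molecule. Intervals are exact Clopper-Pearson 95% intervals, which cover counting error only. All 9 genes of the striated muscle list had reads in both libraries, led by Mir206 at 27262 ± 2019 CPM (SD, n = 2). The list holds miR-1 and miR-133a at more than 1 locus each, so their counts can miss reads aligned to several loci. Its order therefore need not be that of the mature microRNAs. Whole muscle holds blood and vessels, and fewer cells of a type cannot be told apart from less RNA per cell.

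Mir486 was the most abundant of the 4 genes, followed by Mir451a, Mir144 and Mir3107. It had 3363 reads in replicate 1 and 3057 in replicate 2, or 813 CPM (interval 786 to 841) and 949 CPM (916 to 984), with a mean of 881 ± 96.3 CPM (SD, n = 2). That mean ranked it in place 67 of 2202 genes. The order of these genes by level was the same in both libraries.

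Mir451a had 1286 and 999 reads, or 311 CPM (interval 294 to 328) and 310 CPM (291 to 330). Its mean was 311 ± 0.523 CPM, at rank 110. This SD was the smallest of the 4 in CPM, which scale by the total count, whereas under TMM and DESeq2 scaling Mir144 differed less between the libraries. Its cluster partner Mir144 had 388 and 268 reads, or 93.8 CPM (84.7 to 104) and 83.2 CPM (73.6 to 93.8). The mean of Mir144 was 88.5 ± 7.49 CPM, at rank 170.

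Mir3107 differed most between the libraries, with 295 reads in replicate 1 and 61 in replicate 2. These were 71.3 CPM (interval 63.4 to 80.0) and 18.9 CPM (14.5 to 24.3), and the mean of 45.1 ± 37.1 CPM at rank 202 describes neither library. Mir144 stood above Mir3107 in each library, and the gap between their means was only a little larger than the SD of Mir3107. The gaps between Mir486 and Mir451a and between Mir451a and Mir144 were several times the SD of either gene.

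**Figure D2:**
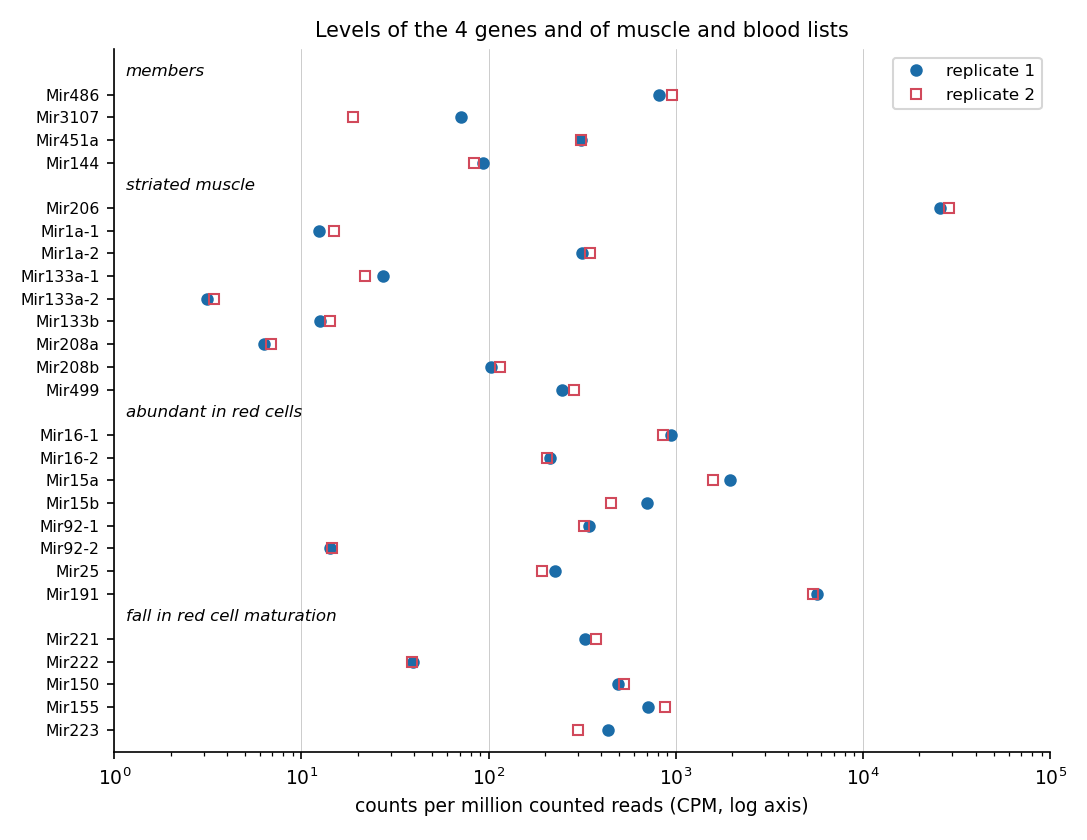
Level of each gene in CPM (horizontal log axis) in replicate 1 (filled circles) and replicate 2 (open squares), for the 4 genes described here and for lists of striated muscle microRNAs, microRNAs abundant in red cells and microRNAs that fall during red cell maturation. Mir486 lies at 813 and 949 CPM, above the red cell genes Mir451a and Mir144 and far below Mir206.

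Within a library, ratios of counts do not depend on scaling. Mir486 exceeded Mir451a 2.62-fold (interval 2.45 to 2.79) in replicate 1 and 3.06-fold (2.85 to 3.29) in replicate 2, a mean log2 ratio of 1.50 ± 0.16 (SD, n = 2). It exceeded Mir144 8.67-fold (7.80 to 9.65) in replicate 1 and 11.4-fold (10.1 to 13.0) in replicate 2, with a mean log2 ratio of 3.31 ± 0.28. For each of these red cell genes the intervals of the 2 libraries did not overlap. The ratio of Mir486 to it thus differed between the libraries by more than counting error. With 1 library per animal, animal and library preparation cannot be told apart. Against the sum of Mir451a and Mir144, Mir486 stood at 2.01-fold (1.89 to 2.13) and 2.41-fold (2.26 to 2.58). The count of Mir486 can miss reads aligned to several loci, so these ratios need not be those of the mature microRNAs.

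The 2 genes of the red cell cluster were then compared with each other. Mir451a exceeded Mir144 3.31-fold (interval 2.96 to 3.72) in replicate 1 and 3.73-fold (3.25 to 4.28) in replicate 2, and these intervals overlapped. Each of these ratios had 1 direction in both libraries. With 2 libraries, the smallest two-sided p of an exact sign-flip test is 0.5, so none was tested. Counts of different sequences also depend on ligation and amplification, which were not measured.

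The same ratios were taken against the striated muscle genes whose mean reached 100 CPM, a limit chosen after the values were seen. Mir499, from an intron of the myosin gene Myh7b, was exceeded by Mir486 3.29-fold (interval 3.07 to 3.54) and 3.32-fold (3.09 to 3.58). Mir208b, from the slow myosin gene Myh7, was exceeded 7.89-fold (7.14 to 8.75) and 8.22-fold (7.38 to 9.18). Mir1a-2, a locus of the muscle microRNA miR-1, was exceeded 2.58-fold (2.42 to 2.76) and 2.74-fold (2.55 to 2.93). The counts of Mir1a-2 and Mir486 can both miss reads aligned to several loci. The ratio to Mir1a-2 therefore need not be that of mature miR-486 to miR-1. Through Mir486, the same holds for the ratios to the other muscle genes. Against Mir206, Mir486 was at 0.0315 (0.0304 to 0.0326) and 0.0331 (0.0319 to 0.0343), so Mir206 was 31.8-fold and 30.2-fold as abundant. For all 4 of these muscle genes the intervals of the 2 libraries overlapped, unlike those for Mir451a and Mir144. The intervals of the ratio of Mir486 to the leukocyte genes Mir150 and Mir155 overlapped too, whereas those to the leukocyte gene Mir223 did not. Overlap was thus not particular to muscle genes. The ratio of Mir486 to a further leukocyte gene, Mir142, with 876 and 643 reads, was not taken. Whether the ratio of Mir486 to muscle genes varies less between animals than its ratio to red cell genes was not tested, since 2 libraries give 1 difference per ratio.

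**Figure D3:**
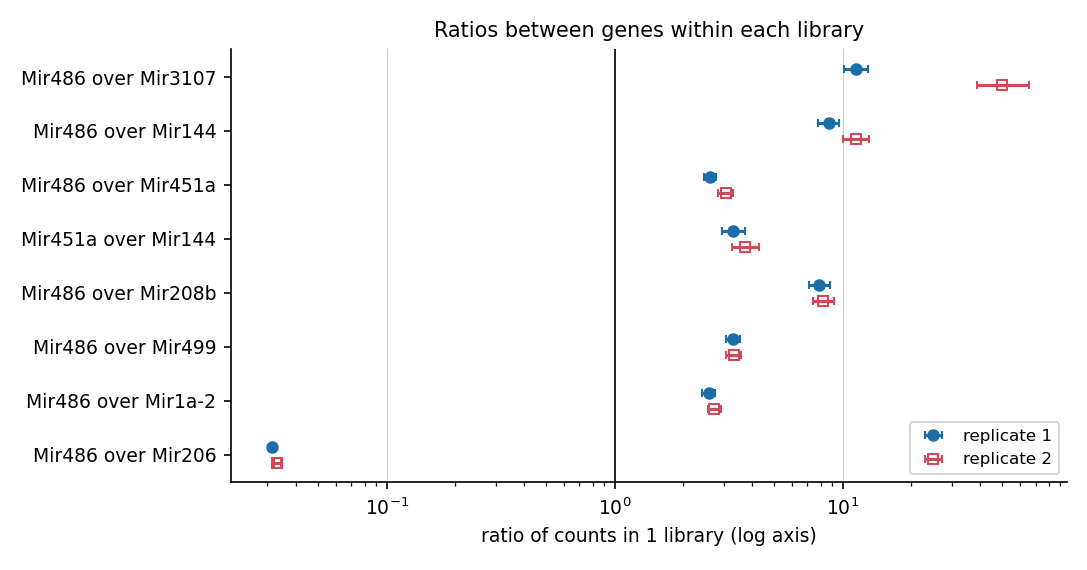
Ratio of counts between genes within replicate 1 (filled circles) and replicate 2 (open squares), on a horizontal log axis with a line at 1; bars are exact 95% intervals of counting error. The ratio of Mir486 to Mir3107 lies at 11.4 and 50.1, whereas its ratio to Mir499 lies at 3.29 and 3.32.

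The strand columns were examined next, because Mir486 and Mir3107 overlap. In both libraries the opposite-strand count of each gene equalled the same-strand count of its partner, so the reads on the minus strand of the locus are those counted as Mir3107. They made up 8.06% of 3658 reads in replicate 1 (interval 7.20 to 8.99) and 1.96% of 3118 reads in replicate 2 (1.50 to 2.51). Mir486 thus exceeded Mir3107 11.4-fold (10.1 to 12.9) in replicate 1 and 50.1-fold (38.9 to 65.7) in replicate 2, a mean log2 ratio of 4.57 ± 1.50 that was 5.64 without replicate 1 and 3.51 without replicate 2.

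The Mir451a locus gave no such reads. Mir451b had 0 reads against 1286 for Mir451a in replicate 1 and 0 against 999 in replicate 2, and a count of 0, taken to allow up to 3 reads, allows a minus-strand share of up to 0.233% and 0.300% of the locus (exact upper ends 0.286% and 0.369%). Mir144 has no opposite-strand partner, had 0 opposite-strand reads in both libraries, and had the same count in the column that ignores strand. The hairpins of Mir451a and Mir451b are shown to compare their strands, with the mature miR-451a in capitals in the first and the longest stretch of miR-451a found in the second in capitals there.
Mir451a hairpin: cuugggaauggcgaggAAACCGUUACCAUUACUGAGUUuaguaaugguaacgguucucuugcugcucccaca
Mir451b hairpin: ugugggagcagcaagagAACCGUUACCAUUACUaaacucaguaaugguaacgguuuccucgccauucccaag
The Mir451b hairpin is the reverse complement of the Mir451a hairpin, and it holds bases 2 to 17 of miR-451a, a run of 16 bases. A full-length read of the 22 bases of miR-451a therefore matches the plus strand and not the minus strand of this locus.

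For miR-486 the case differs, as background. Its hairpin is close to a palindrome, and reference databases give miR-486a-5p and miR-486b-5p the same mature sequence. A read of that sequence aligns to both strands of the locus and, in tables of this layout, would be counted for neither gene. The sequence of this pair was not analysed here, and how many such reads there were was not tested. The whole count of Mir486 equals 0.0242% of the reads aligned to several loci in replicate 1 and 0.0249% in replicate 2. This does not say how many of those reads came from miR-486. The level, the rank, the ratios and the strand share of Mir486 given here cover reads aligned to 1 locus.

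Among 32 pairs of microRNA genes that overlap on opposite strands, 22 had at least 100 reads in each library, a minimum chosen after the counts were seen. Mir486 and Mir3107 had the highest share on the minor strand, the strand with fewer reads, and were the only pair of the 22 above 1% in both libraries. The next was Mir24-1 with Mir3074-1, where 3 of 378 reads in replicate 1 and 2 of 234 in replicate 2 were on the minor strand. All of these shares cover reads aligned to 1 locus, so that of Mir486 and Mir3107 can miss reads of their common mature sequence. The median share of the 21 other pairs was 0%, and 12 of the 22 pairs, Mir451a with Mir451b among them, had no minor-strand read in either library. The 5 pairs with the most reads, led by Mir378a with Gm25301 and Mir126a with Mir126b, and also Mir30e with Mir30f, Mir191 with Gm24083 and Mir338 with Mir3065, had between 0 and 6 minor-strand reads per library.

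**Figure D4:**
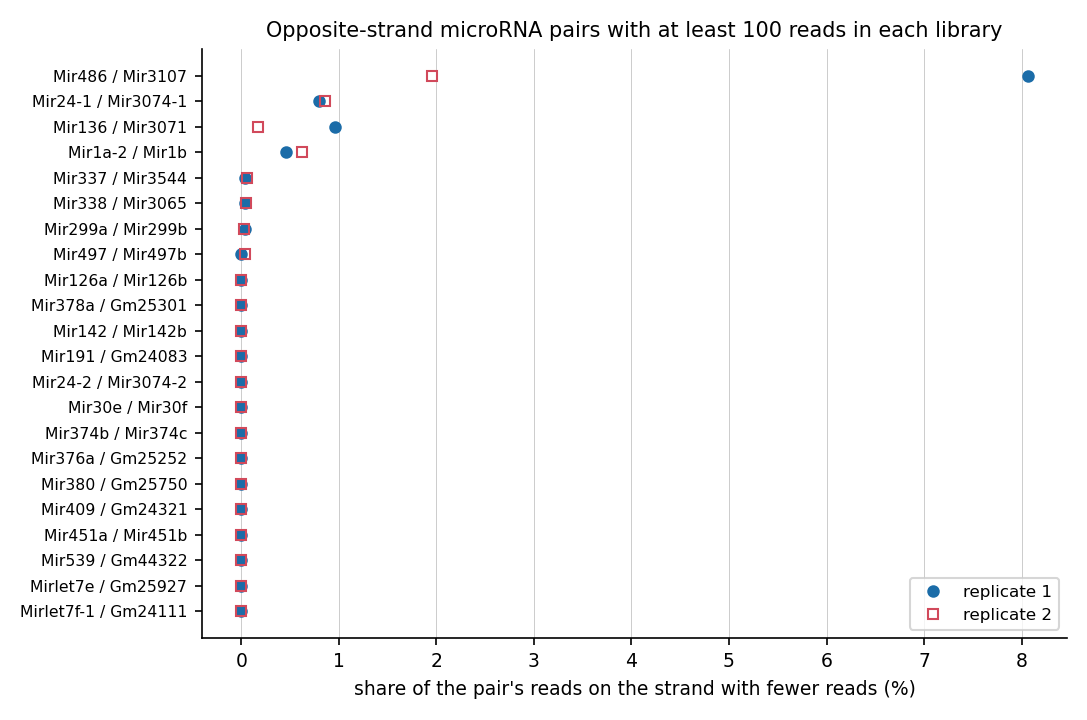
Share of reads on the strand with fewer reads, in percent, for each of 22 opposite-strand microRNA pairs in replicate 1 (filled circles) and replicate 2 (open squares). Mir486 with Mir3107 lies at 8.06% and 1.96%, and every other pair lies below 1% in both libraries.

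Between the libraries, Mir3107 was the member that moved past 2-fold. Ratios are log2 of replicate 2 over replicate 1 in CPM + 1 after TMM scaling, a method that trims the most extreme genes. Their intervals come from the scaled counts without the added 1. Of 261 genes whose mean reached 10 CPM, 14 (5.36%) were past 2-fold, 13 of them (4.98%) lower in replicate 2 and 1 (0.383%) higher. Of the 4 genes described here, all of which passed this minimum, 1 was past 2-fold. Mir3107 was 3.24-fold lower in replicate 2 (log2 ratio −1.70, interval of counting error −2.17 to −1.34), the fourth lowest ratio of the 261.

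Mir486, on the opposite strand of the same bases, was 1.31-fold higher in replicate 2 (log2 ratio 0.39, interval 0.32 to 0.46) and had the 18th highest ratio. Its ratio was 0.22 under total-count scaling and 0.44 with DESeq2 size factors. Mir451a had a log2 ratio of 0.16 (0.04 to 0.28), which turned to −0.0034 under total-count scaling. Mir144 had a log2 ratio of −0.01 (−0.24 to 0.22), with 0.05 under DESeq2 size factors, and 1.53% of the 261 genes had a smaller one in size.

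The median ratio of all 261 genes was −0.05 under TMM, −0.21 under total-count scaling and 0.00 with DESeq2 size factors. Relative to that median, Mir486 stood at 0.44 and Mir3107 at −1.65 under each of the 3 scalings, and Mir451a at 0.21 and Mir144 at 0.04. A scaling shifts all genes and their median by nearly the same amount, so these values could hardly differ between scalings. Each of these ratios compares 1 animal with 1 other, so the spread between animals behind it is unknown.

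**Figure D5:**
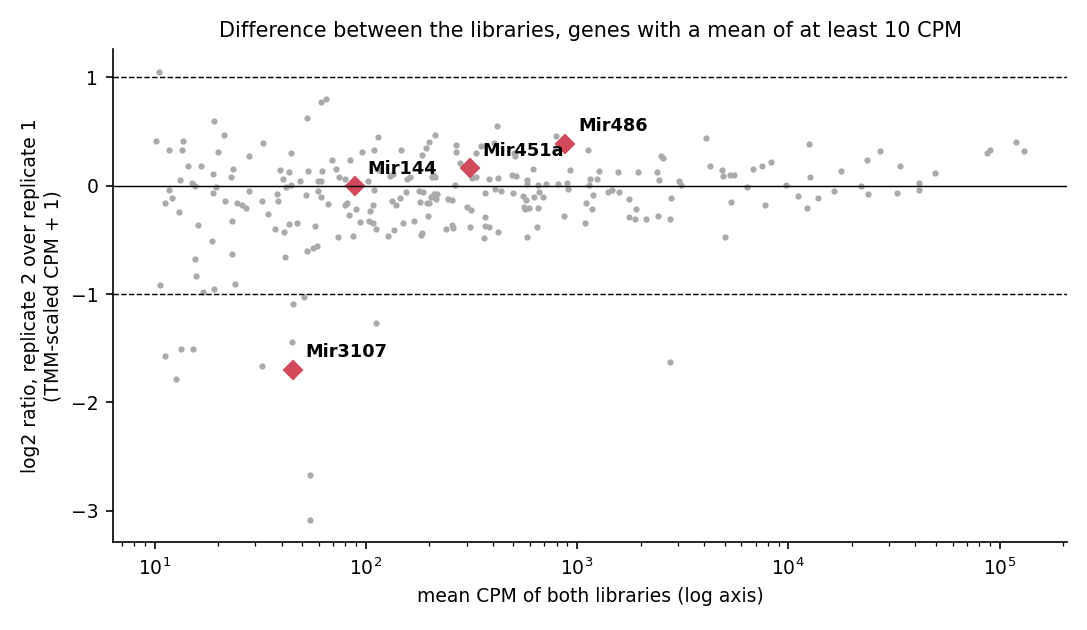
Log2 ratio of replicate 2 over replicate 1 (vertical axis, TMM-scaled CPM + 1) against mean CPM (horizontal log axis) for 261 genes, with the 4 genes described here as labelled diamonds and dashed lines at 2-fold. Mir3107 lies at −1.70, below the lower line, and Mir486, Mir451a and Mir144 lie between 0.39 and −0.01.

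Other genes of the red cell and muscle settings were read from lists. Of the 9 striated muscle genes, 7 passed the minimum, none was past 2-fold and their median log2 ratio was 0.33, with 6 of 7 higher in replicate 2 and Mir133a-1 at −0.16. Mir486 at 0.39 lay within their range of −0.16 to 0.41. Of the 8 genes abundant in red cells, which many other tissues express too, all passed, none was past 2-fold and the median was 0.05, with 5 higher in replicate 2. Mir451a at 0.16 and Mir144 at −0.01 lay within the range of that list, −0.47 to 0.19, and Mir486 lay above it. Mir486 also lay within the range of the genes that fall during red cell maturation, −0.37 to 0.46. Its place among the muscle genes is thus not particular to muscle.

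By level, 2 of these 8 genes exceeded Mir486 in both libraries, Mir191 at 5558 ± 188 CPM and Mir15a at 1765 ± 252 CPM, and 5 of the 8 exceeded Mir451a. Mir16-1 at 896 ± 61.4 CPM was close to Mir486, but miR-16, miR-92a and miR-1 are encoded at more than 1 locus, so their counts can miss reads aligned to several loci. Of the 5 genes known to fall as red cells mature, Mir221, Mir150 and Mir155 exceeded Mir451a in both libraries, and none exceeded Mir486. Mir155, a microRNA of activated leukocytes, came closest to Mir486 at 791 ± 113 CPM. This list had a median ratio of 0.28, with 4 of 5 members higher in replicate 2, Mir223 at −0.37 and none past 2-fold.

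The genes most like each member were those at the smallest Euclidean distance in log2(CPM + 1) over the 2 libraries. For Mir486 these were Mir20a (distance 0.208), Mir155 (0.229), Mir16-1 (0.259) and Mir676 (0.301). For Mir451a they were Mir484 (0.0863), Mir92-1 (0.157), Mir1a-2 (0.161) and Mir30b (0.212), and for Mir144 they were Mir374b (0.0261), Mir377 (0.149), Mir30c-1 (0.200) and Mir24-1 (0.211).

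The nearest genes to Mir3107 were Mir138-2 (distance 0.201), Mir31 (0.481), Mir137 (0.650) and Mir184 (0.671). Because they were chosen for levels close to those of Mir3107, all of them were, like it, higher in replicate 1. The reads were 281 against 70 for Mir138-2, 266 against 85 for Mir31, 211 against 44 for Mir137 and 295 against 99 for Mir184. The part of these genes in the difference of Mir3107 was not tested, and a distance over 2 libraries describes these libraries alone.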

How the data were processed

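Small RNA libraries of total RNA from 2 gastrocnemius samples were analysed as 1 group. The labels give both samples 1 donor identifier but different numbers, and that they come from 2 animals was assumed. The authors deposited whole-number read counts for 2202 microRNA genes per library, on assembly mm10 with annotation M21 per the file descriptions. Which aligner and counter were used is not given in the sources used here. Of the 3 count columns of a table, 1 ignores strand, 1 follows the gene's strand and 1 takes the opposite strand. The 4 rows that name no gene held 79.0% and 80.8% of reads and stayed out of library sizes. CAST alleles that differ from mm10 were not analysed here.

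The same-strand column gave CPM, mean and SD over 2 libraries, and log2 ratios of counts + 0.5 within libraries. Intervals of ratios used the conditional binomial on counts, without the added 0.5 or 1 CPM. TMM factors (1.06 and 0.944) came from edgeR 4.0.16 and size factors from DESeq2 1.42.0, in R 4.3.3, and other steps used Python 3.11.15 with scipy 1.17.1. Ratios between libraries added 1 CPM, which understates the change of low genes, and needed a mean of at least 10 CPM. They were tested on simulated counts with counting error only. Those counts held no variation between animals and no true changes near 2-fold, so the test does not cover such cases. As the series has a single group, no conditions were compared and p-values were not computed.

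The 4 genes and the lists were chosen with earlier results of these data known. The text names the 4 genes, Mir451b, the 4 genes nearest to each, the leading 5 opposite-strand pairs and members of the lists. Alternatives were the column that ignores strand, other scalings, library sizes, minimums and pseudocounts, summed strands, and leaving out each library.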

Additional observations from a re-analysis of the deposited data

How the results depend on the processing

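No paired analysis was possible because the series has 1 group. Of 54 alternatives, 38 moved a value by less than the spread between libraries or counting error, or a count by less than 1.5 times. Another 14 moved it by more and 2 reversed it. With 2 libraries, leaving out 1 always stays within this spread, since each value lies within 1 SD of their mean. Mir3107 with all reads as library size, at 9.30 CPM, was among the 38 because its SD was 37.1 CPM. In the column that ignores strand, Mir486, Mir3107 and Mir451a have 0 reads, since reads over opposite-strand genes are set aside as ambiguous there (988119 and 833648 reads in all). With 0 taken at its limit of 3 reads, the log2 ratios over Mir144 became −6.75 for Mir486 and −6.75 for Mir451a, and 2 ratios between genes at 0 could not be computed. Another pseudocount and leaving out a library kept the direction of all 4 ratios, and summed strands that of the 3 it was run on. For Mir451a over Mir144 the sum could change nothing, as neither gene had opposite-strand reads. Without 1 library the log2 ratio ran from 3.51 to 5.64 for Mir486 over Mir3107, from 1.39 to 1.61 over Mir451a, from 3.11 to 3.51 over Mir144, and from 1.73 to 1.90 for Mir451a over Mir144. With Mir3107 added to Mir486 it was 1.57 over Mir451a and 3.39 over Mir144. The 14 genes past 2-fold became 2 with a minimum of 100 CPM, which leaves out Mir3107, and 41 with no minimum, and ran from 13 to 17 under the other scalings and pseudocount.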

Other observations

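Leukocyte microRNAs, a sign of the blood and immune cells in the muscle, were set beside the red cell genes. Mir451a stood at 0.635 (exact 95% interval 0.591 to 0.681) and 0.586 (0.541 to 0.634) of Mir150, a microRNA of lymphocytes, and at 1.47 (1.35 to 1.60) and 1.55 (1.41 to 1.72) of Mir142, found across blood lineages. The intervals of the 2 libraries overlapped for Mir150 and for Mir142. They did not overlap for Mir155, of which Mir451a stood at 0.437 (0.409 to 0.467) and 0.356 (0.331 to 0.383), or for Mir223. For Mir223, a microRNA of neutrophils and other myeloid cells, the ratio of Mir451a to it was 0.713 (0.663 to 0.767) in replicate 1 and 1.03 (0.945 to 1.13) in replicate 2. Mir223 itself had 1803 and 967 reads. The summed level of Mir451a and Mir144 was 405 CPM in replicate 1 and 394 CPM in replicate 2, against 1849 and 1901 CPM for the 4 leukocyte genes and 85413 and 95833 CPM for the endothelial Mir126a.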
